A study of Mus musculus with 2 samples.

Results

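The genes of active DNA demethylation described here are the dioxygenases Tet1, Tet2 and Tet3, the DNA glycosylases Tdg, Mbd4 and Ung, and the repair genes Apex1, Parp1, Xrcc1 and Lig3. They are 10 of the 23418 rows of the deposited count table and were taken by gene symbol. The 2 libraries were made from polyadenylated RNA of C57BL/6 mouse embryos at the 4 to 8-cell stage. For siDnmt1, 20 embryos that had received siRNA directed at Dnmt1, which copies DNA methylation onto new strands, were pooled. For siScrambled, 20 embryos that had received scrambled siRNA were pooled. The stage of injection was not given in the sources used here, and an uninjected pool or another siRNA against Dnmt1 was not analysed here.

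Tet enzymes oxidise methylcytosine in steps to hydroxymethylcytosine, formylcytosine and carboxylcytosine. Thymine DNA glycosylase (Tdg) removes formylcytosine and carboxylcytosine, and base excision repair then cuts the strand, fills the gap with unmodified cytosine and seals the nick. In the mouse zygote Tet3 is known as the maternal enzyme that acts on the paternal genome, whereas Tet1 and Tet2 are the forms known from pluripotent cells.

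The libraries held 12236615 (siDnmt1) and 11675483 (siScrambled) counts. Rn45s, the ribosomal RNA precursor, took 37.3% and 29.9% of them and left 7670163 and 8187941 counts for other rows. Dnmt1 itself had 687 counts in siDnmt1 and 847 in siScrambled, a ratio of 0.811 (95% interval 0.732 to 0.898). Of the 7315 genes with enough counts to compare, 38.3% were as low as Dnmt1 or lower, so the counts do not set the targeted gene apart. With a single library in each group, none of the differences has a replicate check and no p-value was computed. The intervals are exact 95% intervals of counting error alone. They do not cover amplification, which used 20 PCR cycles without molecular identifiers being described, or differences between pools of embryos. The pluripotency gene Pou5f1 had 1489 and 2152 counts and the oocyte gene Nlrp5 189 and 257. Other oocyte genes did not share a direction: Padi6 had 51 and 29 counts, Zp3 13 and 42, and Ooep 0 and 15. All 8 sperm markers were at 0 in both libraries, as were 10 of 13 cumulus cell markers and 6 of 8 blood markers, the haemoglobin genes among them. The cumulus list summed to 53 counts in siDnmt1 and 56 in siScrambled, and the blood list to 16 and 8. In the cumulus list Amhr2 had 45 and 56 counts, and the rest were Star (6 and 0) and Cyp11a1 (2 and 0). The part of such cells in the results was not tested. In pooled embryos, fewer cells with a transcript and less of it per cell cannot be told apart.

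Summed over the set, the members had 6332 counts in siDnmt1 and 3623 in siScrambled, 1.75-fold more (1.68 to 1.82). The members did not share a direction, as the plot of counts in each library shows. Parp1, Mbd4, Tet2, Lig3 and Tet1 were higher in siDnmt1, Apex1 and Xrcc1 were lower, the intervals of Tet3 and Ung included equality, and Tdg was listed at 0 in both libraries. For each gene a log2 ratio, log2((siDnmt1 + 5)/(siScrambled + 5)), was computed, and the comparison was limited to genes averaging 20 counts or more. Of the 10 members 9 were compared, and Tdg was not. Parp1 and Mbd4 were at least 2-fold higher (2 of 9), a size reached upward by 12.5% of the 7315 genes compared. Apex1 was at least 2-fold lower (1 of 9), a size reached downward by 16.7% of them. In either direction this was 3 of 9 members, and 29.1% of all genes compared, so the members' share lay near that of all genes. The median log2 ratio of the 9 members was 0.47, against -0.02 over all genes compared. Leaving Rn45s out of the totals and setting the rest equal put 4 members, with Tet2 at 1.02 and Lig3 at 1.01 added, past 2-fold higher and 1 past 2-fold lower. The shares of all genes were then 14.4% and 14.9%.

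**Figure D1:**
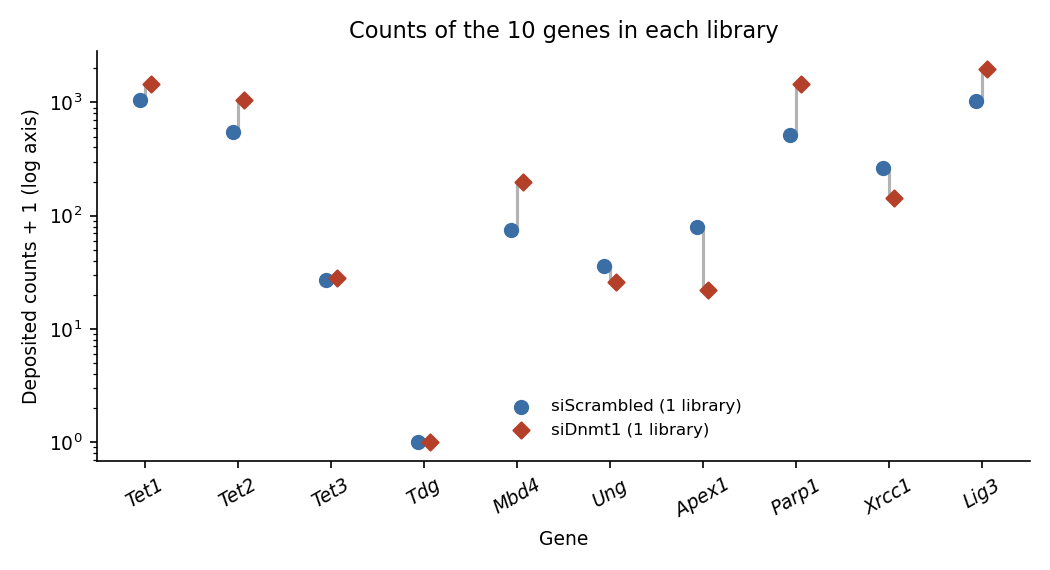
Deposited counts plus 1 (vertical log axis) of the 10 genes in the siScrambled library (circles) and the siDnmt1 library (diamonds). Tet1, Tet2, Mbd4, Parp1 and Lig3 sit higher in siDnmt1, Ung, Apex1 and Xrcc1 sit lower, Tet3 is level at 27 and 26 counts, and Tdg is at 0 in both.

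The windows around the annotated start sites of 5 members are printed because Dnmt1 copies methylation at CG dinucleotides. They belong to the members past 2-fold (Parp1, Mbd4, Apex1) and to those with the most and the fewest CG (Tet2, Xrcc1). Each runs 5′ to 3′ on the gene's strand from 250 bases before to 50 after the start, from RefSeq on GRCm38.p6, with CG in capitals. All 10 members matched an entry. Methylation was not measured in the libraries used here, so the windows are a description.
Parp1, chr1:180568641-180568940, plus strand: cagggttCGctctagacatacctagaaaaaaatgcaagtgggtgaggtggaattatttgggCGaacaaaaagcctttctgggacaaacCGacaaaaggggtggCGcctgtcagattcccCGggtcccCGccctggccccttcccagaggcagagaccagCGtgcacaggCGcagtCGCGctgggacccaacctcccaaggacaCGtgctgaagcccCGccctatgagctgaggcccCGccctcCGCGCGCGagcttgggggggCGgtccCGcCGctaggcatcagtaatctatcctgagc
Mbd4, chr6:115853292-115853591, minus strand: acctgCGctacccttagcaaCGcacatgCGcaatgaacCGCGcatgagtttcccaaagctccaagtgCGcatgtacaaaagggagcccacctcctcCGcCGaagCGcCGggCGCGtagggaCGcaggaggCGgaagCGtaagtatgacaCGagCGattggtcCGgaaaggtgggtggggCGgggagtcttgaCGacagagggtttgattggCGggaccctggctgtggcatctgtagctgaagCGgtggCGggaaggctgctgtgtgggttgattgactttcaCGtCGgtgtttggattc
Apex1, chr14:50924699-50924998, plus strand: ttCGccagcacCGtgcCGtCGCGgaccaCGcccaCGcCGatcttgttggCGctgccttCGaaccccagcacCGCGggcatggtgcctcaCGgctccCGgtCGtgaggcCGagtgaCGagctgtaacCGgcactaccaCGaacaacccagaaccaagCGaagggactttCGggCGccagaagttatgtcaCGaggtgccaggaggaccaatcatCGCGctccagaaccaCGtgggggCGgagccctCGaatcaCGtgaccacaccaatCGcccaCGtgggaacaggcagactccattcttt
Tet2, chr3:133544341-133544640, minus strand: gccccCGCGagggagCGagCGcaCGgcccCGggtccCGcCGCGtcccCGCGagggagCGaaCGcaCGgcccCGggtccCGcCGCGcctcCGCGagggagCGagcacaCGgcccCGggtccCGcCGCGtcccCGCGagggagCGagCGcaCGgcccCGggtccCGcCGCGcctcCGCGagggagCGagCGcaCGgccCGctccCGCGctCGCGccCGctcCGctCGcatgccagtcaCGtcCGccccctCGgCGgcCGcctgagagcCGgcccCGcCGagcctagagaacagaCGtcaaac
Xrcc1, chr7:24546449-24546748, plus strand: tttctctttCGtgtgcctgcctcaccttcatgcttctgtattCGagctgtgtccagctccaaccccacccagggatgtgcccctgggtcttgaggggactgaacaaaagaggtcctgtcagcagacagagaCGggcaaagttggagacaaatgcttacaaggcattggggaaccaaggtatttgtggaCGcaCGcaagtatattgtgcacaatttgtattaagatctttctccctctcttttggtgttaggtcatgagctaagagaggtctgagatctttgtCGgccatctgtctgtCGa

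The Tet2 window held 57 CG dinucleotides, a number reached by 0.152% of the 32851 windows of this length in the table, whose median was 7. Its upstream part repeats a unit with the letters CCGCGAGGGAGC, found 5 times there and in no other of the 32851 windows (1 window is 0.003% of them), both strands searched. This unit was picked from that window as its most frequent run of 12 bases. The window of Xrcc1 held 7 CG, the median of all windows, and was the poorest of the set. Apex1 held 31, Mbd4 25 and Parp1 20, and the windows not printed held 26 (Tdg), 22 (Tet3), 19 (Lig3), 17 (Tet1) and 16 (Ung). The genes compared were richer in CG than all windows: of those with 1 window, 1915 had 25 CG or more. The class of Xrcc1, with 5 to 9 CG, held 248 of them, and 199 had 4 or fewer. CG content did not order the members by their change: the lower gene Apex1 had more CG than the higher genes Parp1 and Mbd4. The E-box letters CACGTG, the same on both strands, occurred 3 times in the Apex1 window, which 0.0883% of windows matched, and once each in Parp1, Lig3 and Tdg, against 7.15% of windows with 1 or more. The GC box letters GGGCGG were found 4 times in the Parp1 window, both strands searched, against 10.7% of all windows with 3 or more. At least 1 was found in 8 of the 10 members' windows and in 35.7% of all windows. The CCAAT box letters CCAAT occurred in the windows of Tet3, Tdg, Mbd4, Apex1 and Xrcc1, and in 37.4% of all windows. The TATA box letters TATAAA occurred in no member's window and in 13.6% of all windows. Both the E-box and the GC box letters contain CG, and every member but Xrcc1 had more CG than the median window. The shares of all windows are therefore not those of windows of like CG content, which were not computed.

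Among the dioxygenases, Tet1 and Tet2 carried nearly all counts of the family. Tet1 had 1459 counts in siDnmt1 and 1054 in siScrambled, a ratio of 1.38 (1.28 to 1.50). Tet2 had 1043 counts against 548, a ratio of 1.90 (1.71 to 2.11). Both intervals lie above equality and do not overlap each other, so the excess of Tet2 over that of Tet1 was larger than counting error. Within the libraries, Tet2 made up 41.2% (39.3 to 43.2) of the 2529 Tet counts in siDnmt1 and 33.7% (31.4 to 36.0) of the 1628 in siScrambled, a comparison that does not depend on how the libraries are scaled. Tet1 made up 57.7% (55.7 to 59.6) and 64.7% (62.4 to 67.1). Neither was far out in these libraries: the 0.92 of Tet2 was reached or passed by 14.0% of all genes, and the 0.47 of Tet1 by 29.0%.

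Tet3, the maternal enzyme of the zygote, was the rarest of the family in both pools. It had 27 counts in siDnmt1 and 26 in siScrambled, a ratio of 1.04 with an interval of 0.583 to 1.85. These counts leave the direction of any difference unresolved. Tet3 counts were 1.07% (0.705 to 1.55) of the Tet counts in siDnmt1 and 1.60% (1.05 to 2.33) in siScrambled, and these intervals overlap. The 3 transcripts are all long (14369, 9179 and 10904 nt for Tet1, Tet2 and Tet3), in the longest 10% of genes compared. In that class the median log2 ratio of all genes was 0.19, and 16.0% of its genes lay at or above Tet2.

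The glycosylases start repair by cutting a base from its sugar. Mbd4, which removes thymine and uracil opposite guanine at methylated sites, had 198 counts in siDnmt1 and 73 in siScrambled. Its ratio was 2.71 (2.06 to 3.60), and 6.30% of all genes reached or passed its log2 ratio of 1.38. Ung, the main uracil glycosylase, had 25 counts against 35, a ratio of 0.714 with an interval of 0.410 to 1.23 that includes equality. Mbd4 was thus 88.8% (83.9 to 92.6) of the summed Mbd4 and Ung counts in siDnmt1 and 67.6% (57.9 to 76.3) in siScrambled. These intervals do not overlap. Tdg, listed at 0 in both libraries, adds nothing to these sums. Part of the Mbd4 transcript is not its own: 7.52% of its 50-base windows occur in transcripts of other genes, 4.85% in an antisense transcript across it.

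Tdg, the glycosylase that acts on the oxidised bases, was listed at 0 in both libraries. By its exact 95% interval, a count of 0 allows a level of up to 0.137 in siDnmt1 and 0.129 in siScrambled. These are per kilobase and 1000000 counts other than Rn45s. Its transcript has near-identical copies: of the 3453 windows of 50 bases along its longest GENCODE M21 transcript, 66.3% occur in transcripts of other genes. The pseudogene Tdg-ps shares 47.4% of the windows, Gm9855 25.4% and Gm5597 24.1%. Glt8d2, which overlaps the end of Tdg on the other strand, shares 9.21%. The rows Gm9855 and Glt8d2 were also at 0 in both libraries. The other 1163 windows of Tdg occur in no other annotated transcript. How reads with several matches were treated is not given in the sources used here, so the 0 is not read as absence of the transcript, and its cause was not tested.

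Downstream of the glycosylases, Parp1 had the highest ratio of the set, though its interval overlapped that of Mbd4. The enzyme detects strand breaks and marks them with poly(ADP-ribose). Parp1 had 1462 counts in siDnmt1 and 516 in siScrambled, a ratio of 2.83 (2.56 to 3.14), and 5.21% of all genes reached or passed its log2 ratio of 1.49. None of its 3824 windows occurs in another transcript. Its relative Parp2, which shares this role, had 269 counts against 202, a ratio of 1.33 (1.11 to 1.61), and Parp1 made up 84.5% (82.7 to 86.1) of their summed counts in siDnmt1 and 71.9% (68.4 to 75.1) in siScrambled. Parg, which removes poly(ADP-ribose), had 1837 against 1376 counts, a ratio of 1.34 (1.24 to 1.43). Parp2, Parg, Apex2 and the genes that overlap members were chosen after their values were seen.

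Apex1, the main endonuclease that cuts the strand at a site without a base, was lower in siDnmt1. It had 21 counts in siDnmt1 and 78 in siScrambled, 3.71-fold lower (2.27 to 6.33), and 6.70% of all genes were as low as its log2 ratio of -1.67 or lower. Its relative Apex2 had 39 counts against 20, a ratio of 1.95 (1.11 to 3.53). Apex1 has the shortest transcript of the set (1239 nt), and short transcripts were lower in siDnmt1 in general. In the shortest 10% of genes, of up to 1769 nt, the median log2 ratio was -0.77, 43.3% of genes were at least 2-fold lower and 18.8% lay at or below Apex1. After the trend with length was removed the log2 ratio of Apex1 was -0.83, so that it no longer passed 2-fold. Apex1 also overlaps Pip4p1 on the other strand, and 65.6% of its windows lie in that gene's transcripts. Pip4p1, under its older symbol Tmem55b, had 35 counts in siDnmt1 and 25 in siScrambled. Whether reads were counted by strand is not given in the sources used here, so the counts of this pair are uncertain.

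Xrcc1 and Lig3 encode the scaffold and the ligase of 1 complex that seals the nick, and they differed in direction. Xrcc1 had 141 counts in siDnmt1 and 260 in siScrambled, 1.84-fold lower (1.50 to 2.28). Lig3 had 1956 counts against 1033, 1.89-fold higher (1.76 to 2.04). As a share of the counts of this pair, Xrcc1 was 6.72% (5.69 to 7.88) in siDnmt1 and 20.1% (18.0 to 22.4) in siScrambled, again free of the scaling between libraries. The Xrcc1 transcript is 2528 nt and that of Lig3 5957 nt. Without the length trend the log2 ratio of Xrcc1 went from -0.86 to -0.73 and that of Lig3 from 0.92 to 0.77, so the pair still differed. Among genes of like length 20.1% lay at or below Xrcc1 and 17.8% at or above Lig3. Lig3 overlaps Rffl on the other strand in 30.1% of its windows, and Rffl had 300 counts in siDnmt1 and 105 in siScrambled, a ratio of 2.86 (2.28 to 3.60), so reads of this pair may likewise not be separated. No window of Xrcc1 occurs in another transcript.

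**Figure D2:**
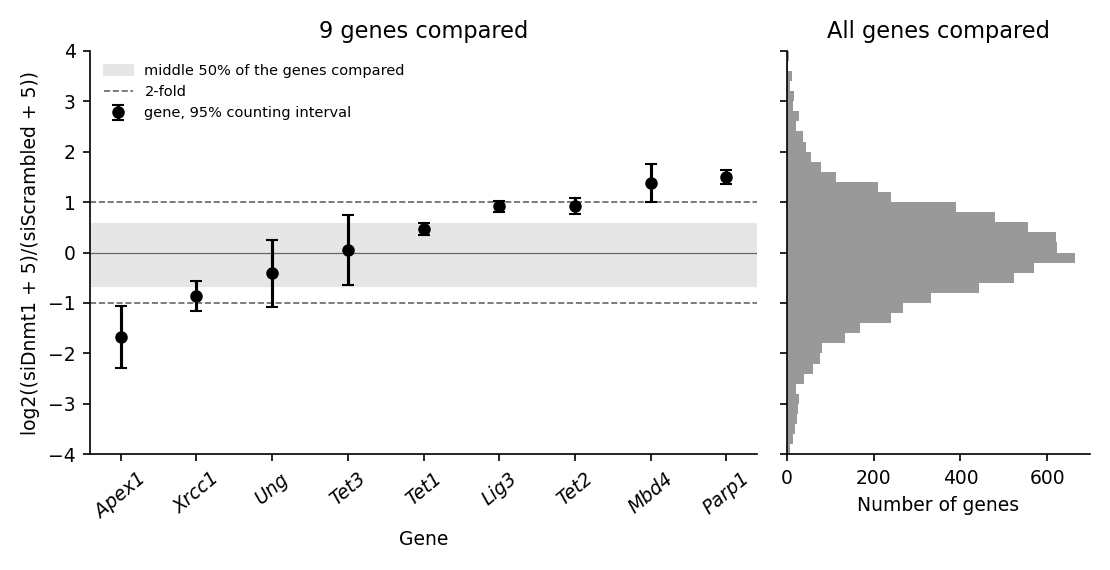
Left, log2((siDnmt1 + 5)/(siScrambled + 5)) of the 9 members compared (points) with 95% counting intervals (bars), the middle 50% of all genes compared (grey band, -0.67 to 0.57) and 2-fold (dashed lines). Right, the same log2 ratio for all 7315 genes, of which 18 lie beyond the axis limits of -4 and 4. Parp1 and Mbd4 lie above 2-fold and Apex1 below it, while Tet1, Tet3 and Ung lie inside the grey band.

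Levels of different genes were compared as counts per kilobase of the longest transcript per 1000000 counts other than Rn45s. In siScrambled the order was Lig3 (21.2), Parp1 (16.3), Xrcc1 (12.6), Tet1 (8.96), Apex1 (7.69), Tet2 (7.29), Mbd4 (2.47), Ung (1.38) and Tet3 (0.291). In siDnmt1 it was Parp1 (49.2), Lig3 (42.8), Tet2 (14.8), Tet1 (13.2), Xrcc1 (7.27), Mbd4 (7.14), Apex1 (2.21), Ung (1.05) and Tet3 (0.323). On this scale Lig3 stood above Parp1 in siScrambled and below it in siDnmt1, with intervals that do not overlap in either library. Tet1 stood above Tet2 in siScrambled (8.43 to 9.52 against 6.69 to 7.93) and just below it in siDnmt1, where their intervals meet (12.6 to 13.9 against 13.9 to 15.7). Apex1 in siScrambled (6.08 to 9.60) could not be told from Tet1 or Tet2, nor Xrcc1 in siDnmt1 (6.12 to 8.58) from Mbd4 (6.18 to 8.21). The order rests on the transcript length used. By the median length of coding transcripts, which for Tet1 is 567 nt and includes fragments, Tet1 came 1st in siScrambled and 2nd in siDnmt1, Parp1 stood above Lig3 in both libraries (132 against 34.7 in siScrambled, 400 against 70.2 in siDnmt1), and Ung and Tet3 stayed the lowest of those with a count.

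**Figure D3:**
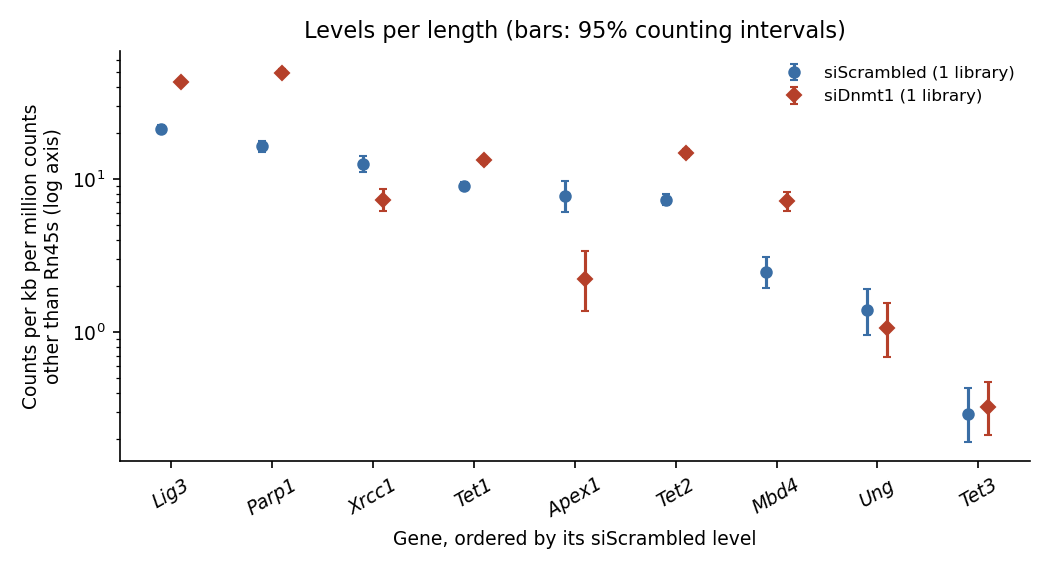
Counts per kilobase per 1000000 counts other than Rn45s (vertical log axis) of the 9 genes with a count, ordered by the siScrambled level, with 95% counting intervals (bars). Levels run from 0.291 for Tet3 to 21.2 for Lig3 in siScrambled (circles) and from 0.323 for Tet3 to 49.2 for Parp1 in siDnmt1 (diamonds).

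The ratios of all genes varied with transcript length, while those of the members followed it only in part. The log2 ratio of all genes compared had a median of -0.77 in the shortest 10% and 0.19 in the longest 10%. Apex1 and Xrcc1, the lower members, have the shortest transcripts of the 9 (1239 and 2528 nt), followed by Ung (3099 nt), whose interval includes equality. The longest, Tet1 and Tet3, were not the highest. Parp1 and Mbd4 are of medium length (3873 and 3614 nt), and 7.03% and 7.02% of the genes in their length classes lay at or above them. With the trend removed Parp1 stood at 1.47 and Mbd4 at 1.38, Tet2 at 0.72, Tet1 at 0.23, Tet3 at -0.17 and Ung at -0.36, with 2 members past 2-fold higher and 0 past 2-fold lower. The median of the 9 members was then 0.23. The part of length in the other differences was not tested.

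**Figure D4:**
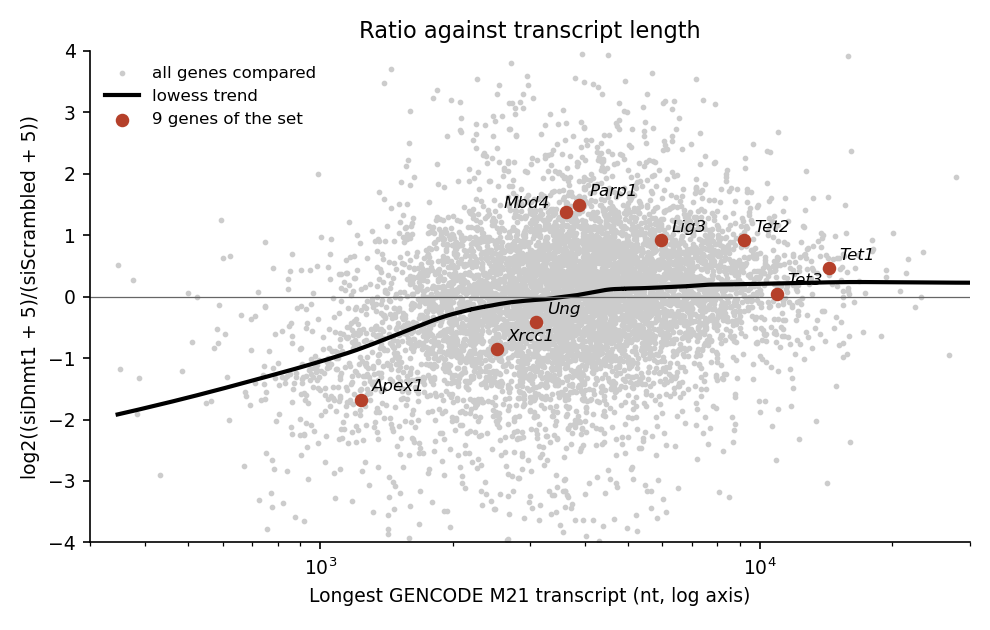
log2((siDnmt1 + 5)/(siScrambled + 5)) against the longest GENCODE M21 transcript (horizontal log axis) for genes compared with a known length (grey), with a lowess trend (line) and the 9 members (large points). Apex1, Xrcc1 and Ung lie at short lengths below 0, and Parp1 and Mbd4 lie furthest above the trend, 1.47 and 1.38 over it.

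The wider pathway was described with 6 gene lists. Together they held 86 genes in the table, of which 57 were compared. Past 2-fold stood 8 genes on the higher side and 12 on the lower, with a median log2 ratio of 0.07. These are 14.0% and 21.1% of the 57, near the 12.5% and 16.7% of all genes compared.

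The list of end processing, gap filling and ligation had 22 of 30 genes compared, with 5 past 2-fold higher (22.7%, against 12.5% of all genes), 6 past 2-fold lower (27.3%, against 16.7%) and a median of 0.20. The highest was an enzyme that cleans the ends of broken strands. Tdp1, which frees ends from trapped topoisomerase, had 53 counts in siDnmt1 and 7 in siScrambled (7.57-fold higher, 3.43 to 19.7). Past 2-fold higher were also the polymerase epsilon genes Pole4 (50 against 14) and Pole (456 against 195) and the polymerase delta gene Pold1 (118 against 54). The other listed epsilon genes were lower: Pole3 had 166 against 266 counts and Pole2, too low to be compared, 3 against 20. Aptx, an end-cleaning enzyme that binds Xrcc1, was lower, with 55 against 156 (2.84-fold, 2.07 to 3.93), so Tdp1 and Aptx did not share a direction. The lowest were Pold2, a subunit of DNA polymerase delta, with 19 counts against 100 (5.26-fold lower, 3.20 to 9.11), and Adprhl2, which removes ADP-ribose from serine, with 73 against 308 (4.22-fold lower, 3.26 to 5.52). Polb, the polymerase that fills the gap of a single base, had 11 against 31 (2.82-fold lower, 1.38 to 6.21). For the longer repair patch, Fen1, the flap nuclease, had 14 against 39 and Pcna, the polymerase clamp, 195 against 516 (2.65-fold lower, 2.24 to 3.14). The ligase Lig1, which serves that patch, had 252 against 317 (1.26-fold lower, 1.06 to 1.49). Pole4, Pole, Pole3, Pole2, Pold1, Aptx, Polb, Fen1, Pcna and Lig1 were chosen after their values were seen. The transcripts of Pold2, Adprhl2 and Pcna are short (1646, 1826 and 1518 nt). Without the length trend their log2 ratios were -1.63, -1.63 and -0.78, so Pcna no longer passed 2-fold.

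Of the 8 other glycosylases 3 were compared and none was 2-fold apart. Smug1, a uracil glycosylase, had 36 counts in siDnmt1 and 25 in siScrambled. Nthl1, for oxidised pyrimidines, had 63 against 95 (1.51-fold lower, 1.09 to 2.11), and Ogg1, for oxidised guanine, 42 against 74 (1.76-fold lower, 1.19 to 2.64). Their transcripts are short (2084 and 1601 nt). Without the length trend the log2 ratio of Nthl1 went from -0.56 to -0.31 and that of Ogg1 from -0.75 to -0.22. The Neil enzymes, proposed to assist Tdg, had few counts: Neil1 2 and 7, Neil2 2 and 0, and Neil3 15 and 3. They were chosen after their values were seen.

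Tet partners and regulators had 11 of 13 genes compared, with 2 past 2-fold in each direction (18.2%, against 12.5% higher and 16.7% lower of all genes) and a median of -0.10. The extremes lay in the cullin 4 ubiquitin ligase, which modifies Tet proteins. Its adaptor Ddb1 had 4323 counts in siDnmt1 and 1813 in siScrambled (2.38-fold higher, 2.26 to 2.52) and the scaffold Cul4a 118 against 47 (2.51-fold higher, 1.78 to 3.60). Its ring subunit Rbx1 had 26 counts against 223 (8.58-fold lower, 5.70 to 13.4). Other listed genes of this ligase did not pass 2-fold: Vprbp had 1057 against 1136 counts and Cul4b 20 against 36. Vprbp and Cul4b were chosen after their values were seen. Dppa3, which shields methylcytosine from Tet3 in the zygote, had 70 against 194 counts (2.77-fold lower, 2.10 to 3.70). Its transcript is 833 nt and its log2 ratio went from -1.41 to -0.19 without the length trend, while that of Rbx1 went from -2.88 to -2.78.

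Genes that supply or use 2-oxoglutarate, the cosubstrate of Tet enzymes, had 18 of 22 compared, with 1 past 2-fold higher (5.56%, against 12.5% of all genes), 3 past 2-fold lower (16.7%, the share of all genes) and a median of 0.11. Aco1, the cytosolic aconitase, had 324 counts in siDnmt1 and 135 in siScrambled (2.40-fold higher, 1.96 to 2.96), and Got1, an aspartate aminotransferase, 134 against 74 (1.81-fold higher, 1.35 to 2.44). Sdhb, of succinate dehydrogenase, had 17 against 58 (3.41-fold lower, 1.96 to 6.25) and Dlst, of the oxoglutarate dehydrogenase complex, 202 against 452 (2.24-fold lower, 1.89 to 2.65). The last of the lower genes, Idh3a, of mitochondrial isocitrate dehydrogenase, had 48 against 103 and was chosen after its values were seen. Sdhb has a transcript of 1232 nt, and its log2 ratio of -1.52 was -0.67 without the length trend.

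**Figure D5:**
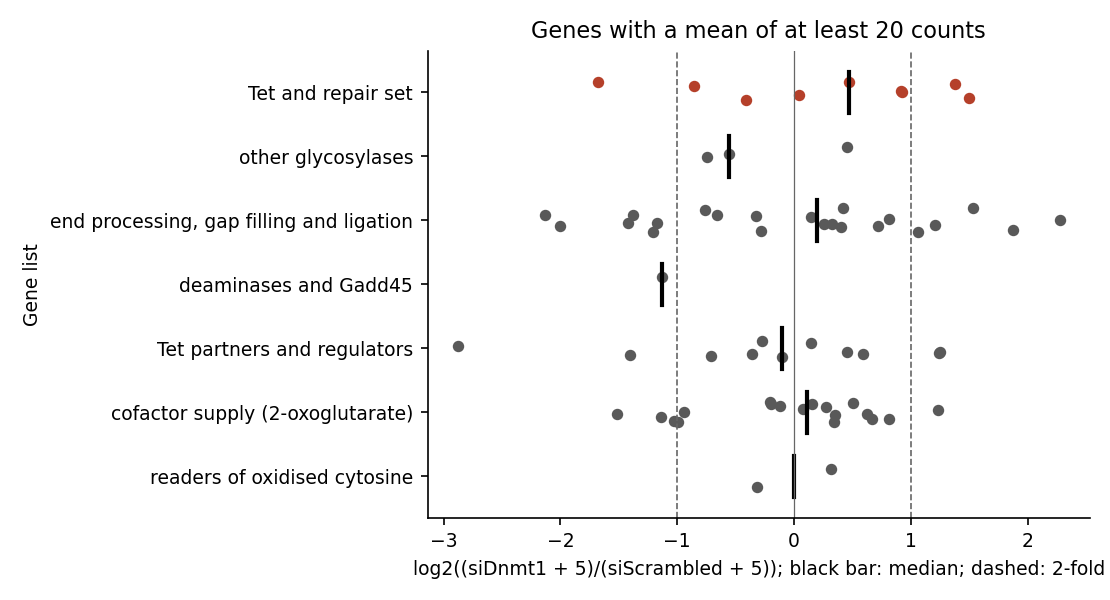
log2((siDnmt1 + 5)/(siScrambled + 5)) of each gene averaging 20 counts or more (points) in the Tet and repair set and in the 6 lists of the wider pathway, with the median of each list (black bars) and 2-fold (dashed lines). Medians run from -1.13 for the deaminase list, which has 1 gene compared, to 0.47 for the Tet and repair set, and genes on both sides of 0 appear in every list with more than 1 gene.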

How the data were processed

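Polyadenylated RNA from 1 pool of embryos per group was amplified by 20 PCR cycles and sequenced from both ends, per the labels' protocols. Per the submitters' processing notes, the tools were HISAT2, HTSeq, Trim Galore and DESeq2 with mm9, without versions. How strand, annotation and reads with multiple matches were handled is not given in the sources used here. Counts per gene were deposited in 2 columns, and 0 value columns were left unmapped. The table is named as normalised, but no whole number from 1 to 59 was skipped in either column, and the values were taken as counts. Rounded values scaled by a factor near 1 could also skip none, so this check does not settle the unit. The counting intervals rest on the values being counts. The recomputed DESeq2 size factor was 1 for both columns, which does not tell the unit. With 1 library per group no edgeR quasi-likelihood test could be fitted. Genes averaging 20 counts or more were compared by log2 ratio with a pseudocount of 5. Ratio intervals are 95% Clopper-Pearson and level intervals exact Poisson, both for counting error only. Rows whose names had become dates (27) held 0.0234% and 0.0230% of counts and stayed in.

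Lengths are those of the longest GENCODE M21 transcript (GRCm38, not mm9), found for 99.4% of genes compared. The length trend is a lowess curve with a span of 0.3. Shared windows are exact 50-base matches on either strand in that annotation's transcripts. Named genes are the members and the 2 highest and 2 lowest genes of each list (all where 5 or fewer were compared). Some genes the rule takes are not reported here. The members and lists were chosen with earlier results of these data known. Work was done in R 4.3.3 with DESeq2 1.42.0 and edgeR 4.0.16, and in Python 3.11.15 with scipy 1.17.1, statsmodels 0.14.6, matplotlib 3.10.9, numpy 2.4.6 and pandas 2.3.3.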

Additional observations from a re-analysis of the deposited data

How the results depend on the processing

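With 1 library per group, neither embryo pools nor amplification can be told apart from the siRNA, and no replicate could be left out. No paired analysis was possible because each group has 1 library and the result comes from no test. Under 10 alternatives each (9 for Tet3, Ung and Apex1), Parp1 and Mbd4 stayed at least 2-fold higher in all 10, Apex1 at least 2-fold lower in 8 of 9 (-0.83 without the length trend), and Tet1, Tet2, Ung, Xrcc1 and Lig3 kept their sign. Tet3 kept it in 7 of 9, between -0.17 and 0.24. Alternatives that changed only the count filter could not alter a gene's own ratio, and these tallies include them as unchanged. With equal totals without Rn45s, 4 members were at least 2-fold higher. At a mean of at least 100 counts, which leaves 6 members, 0 were 2-fold lower and the median was 0.92, and 4 list genes were higher and 6 lower of 34. Without the length trend 0 members were 2-fold lower and the median was 0.23. At a 4-fold threshold 0 members were higher and 0 lower, and 1 and 3 list genes. The mean over the members was 0.25 in place of the median of 0.47. Of 190 values of single lists 164 moved by no more than 1.5 times or counting error, and 26 moved further. At the mean of 100 counts 2 lists had no gene left and gave no median. Their counts of genes past 2-fold were then 0 by construction and are among the 190. The median coding length was added after the data were seen. Depth limits Tet3, Ung and Apex1, with 21 to 78 counts.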

Other observations

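Genes for other routes to unmodified cytosine were hardly counted in these embryos. Of 7 genes for deaminases and Gadd45 proteins, which have been proposed to take part in demethylation, Apobec1 and Apobec2 were at 0 in both libraries. Apobec3, known for restriction of retroviruses, was the only one of the list compared, with 52 counts in siDnmt1 and 120 in siScrambled (2.31-fold lower, 1.65 to 3.26). Gadd45b had 0 counts against 20, or 6.67-fold lower with a floor of 3 counts set in the siDnmt1 library. Its 95% interval allows a ratio of up to 0.203. Gadd45g had 1 against 17 (17-fold lower, 2.66 to 710). Gadd45b and Gadd45g averaged under 20 counts, and their transcripts are short (1284 and 1071 nt). Of the shortest 10% of genes compared, of up to 1769 nt, 43.3% were at least 2-fold lower. These 2 genes were chosen after their values were seen. Of 8 proteins listed as binding oxidised cytosine, 2 were compared: Mbd3, of the NuRD complex, had 149 counts against 119 and Wdr76 64 against 81, and both intervals (0.977 to 1.61 and 0.560 to 1.11) include equality.

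Across all genes with 1 start-site window and a mean of at least 20 counts, the share of genes 2-fold apart varied with the CG content of the window. In the 199 genes with 4 CG or fewer, 21.6% stood past 2-fold on the higher side and 18.6% on the lower. In the 1915 genes with 25 or more, the class of Tet2, Apex1 and Mbd4, the shares were 11.9% and 14.9%. In the 248 genes with 5 to 9 CG they were 21.8% and 26.6%, and in the 448 with 10 to 14 they were 12.5% and 19.6%. The medians did not follow CG content in order: 0.11, -0.11, -0.15, -0.06, -0.05 and -0.01 from the fewest CG to the most. Genes of the first class had shorter transcripts (median 3123 against 4191 nt), and whether length accounts for the difference was not tested.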
